A study of Homo sapiens with 4 samples.

Results

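Polyamine synthesis and control were followed in the RNA of BE(2)C:MYCN-ORF cells, a human neuroblastoma line that carries a MYCN open reading frame. The 10 genes ODC1, SRM, SMS, AMD1, OAZ1, OAZ2, AZIN1, SAT1, SMOX and PAOX were chosen by name from pathway knowledge, with earlier results of these data known, and all 10 were found among the 19734 gene rows of the expression table. The cells were transfected with siMYCN plus let-7a, siMYCN plus miRCon, siCon plus let-7a or siCon plus miRCon, where siMYCN is an siRNA against MYCN, siCon its control, let-7a a mimic of that miRNA and miRCon the control mimic. PolyA RNA was taken 48 hours after transfection, and each group was 1 library. A difference between 2 libraries therefore has no replicate check. All 4 groups carry the introduced reading frame, and nothing in the labels says how it was introduced or whether the line is 1 clone.

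Polyamines are small positively charged molecules that bind RNA and DNA and are needed for growth. Ornithine decarboxylase (ODC1) makes putrescine, S-adenosylmethionine decarboxylase (AMD1) supplies the aminopropyl groups, and spermidine synthase (SRM) and spermine synthase (SMS) add them to give spermidine and spermine. Antizymes (OAZ1 and OAZ2) are made by a ribosomal frameshift when polyamines are plentiful, bind ODC1 and send it to the proteasome, while the antizyme inhibitor AZIN1 holds antizymes away from ODC1. Spermidine/spermine acetyltransferase (SAT1) and the oxidases SMOX and PAOX run the pathway backwards. ODC1 is a textbook target of MYC proteins, and inhibiting it with difluoromethylornithine is an approach used in neuroblastoma.

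The natural let-7a sequence is shown because a miRNA finds its targets mainly through its seed, here bases 2 to 8 in capitals (RefSeq, GRCh38.p14, the same at MIRLET7A1, MIRLET7A2 and MIRLET7A3). The sequence of the mimic itself is not given in the sources used here.
hsa-let-7a-5p: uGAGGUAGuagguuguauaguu

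Sites that pair with this seed were searched in the longest annotated 3′ UTR of each gene (GENCODE 29, GRCh38), as CTACCTCA (8mer), CTACCTC (7mer-m8) or TACCTCA (7mer-A1), on the transcript strand. None (0) of the 10 genes held one, against 19.0% of the 8916 tested genes with a 3′ UTR. A shorter match of 6 bases, TACCTC, a search added after the values were seen, lay in the 3′ UTRs of AMD1 and SMOX and of none of the other 8 genes. It was present without a longer site in 10.3% of those tested genes. Both matches are printed, since they are the only matches found in those UTRs and AMD1 had the lowest let-7a estimate of the 8 tested members. Capitals mark the 6 matching bases. The windows are chr6:110894047-110894076 and chr20:4187588-4187617, both on the plus strand.
AMD1: gccagaattttacatccagtTACCTCcact
SMOX: gagcaggtgggccgttgagtTACCTCtgtg

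MYC proteins with their partner MAX bind the E-box CACGTG, which reads the same on both strands. RefSeq promoter windows of 300 bases around a start were matched for 7 of the 10 genes. AZIN1, SMOX and PAOX had no entry in the table. ODC1 and SRM held the word, as did 7.26% of the 35116 windows in the table and 13.3% of the 7256 tested genes with a window. The ODC1 stretch shown lies in the first intron of transcript ODC1-201 on the minus strand (chr2:10447963-10448120), in the window of an alternative start, and has the word in 2 places. The SRM stretch lies upstream of the annotated first exon on the minus strand (chr1:11060025-11060268) and has it once. A match is a description of the letters, not a shown binding site.
ODC1: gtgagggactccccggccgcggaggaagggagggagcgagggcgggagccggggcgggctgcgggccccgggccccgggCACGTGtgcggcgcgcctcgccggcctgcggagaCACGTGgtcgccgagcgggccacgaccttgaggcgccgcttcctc
SRM: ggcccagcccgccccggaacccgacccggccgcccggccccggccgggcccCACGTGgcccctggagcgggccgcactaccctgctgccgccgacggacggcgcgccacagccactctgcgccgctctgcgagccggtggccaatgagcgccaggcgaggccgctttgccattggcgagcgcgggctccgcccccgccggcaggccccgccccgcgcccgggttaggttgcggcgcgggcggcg

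The deposited logs were read as natural logs and turned back to linear values by exp(x) - 1. The base is inferred: these values sum to between 855811 and 862049 in each library, while base 2 would give sums between 143211 and 147588, and another base would rescale every fold change. They are called TPM-like values and were taken to be per length, which is also inferred. Comparisons of level between genes rest on that reading, which was not tested. Read depth is lost in the TPM-like values, and counting error is therefore unknown. MYCN, the siRNA's target, was at 1197 in siMYCN plus let-7a and 1238 in siMYCN plus miRCon, against 1433 in siCon plus let-7a and 1449 in siCon plus miRCon, and gene-level values cannot part the introduced reading frame from the cells' own gene. The siMYCN estimate for MYCN was a log2 fold change of -0.24 ± 0.047 (limma SE), and 15.3% of the tested genes had a lower one. Transcripts of the mitochondrial genome made up 28.4% to 29.3% of the total in siMYCN libraries and 31.6% to 32.1% in siCon libraries. With those transcripts left out, the siMYCN estimates were 0.33 for ODC1, 0.85 for OAZ1, 0.27 for AMD1 and -0.29 for SRM on the log2 scale. In that setting SMS had 0.13, AZIN1 0.041, SAT1 0.16 and OAZ2 -0.069. All 8 neuroblastoma markers were above 1 in every library, with sums of 2593 and 2594 in siMYCN libraries with let-7a and with miRCon, and of 3075 and 2976 in siCon libraries with let-7a and with miRCon, and MYCN is one of these markers. Their siMYCN estimates ranged from -0.68 (ISL1) to 0.75 (TH) on the log2 scale, and TH alone had a positive one. Of the 6 fibroblast markers 5 were above 1 in every library, with sums of 243 to 293 in siMYCN libraries and at most 271 in siCon libraries. The 4 epithelial markers summed to 3.32 to 7.77 in siMYCN and 3.14 to 4.22 in siCon libraries, with CDH1 and KRT5 at 0 throughout. The 4 blood markers summed to at most 0.351. The part of these markers in the results was not tested.

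**Figure D1:**
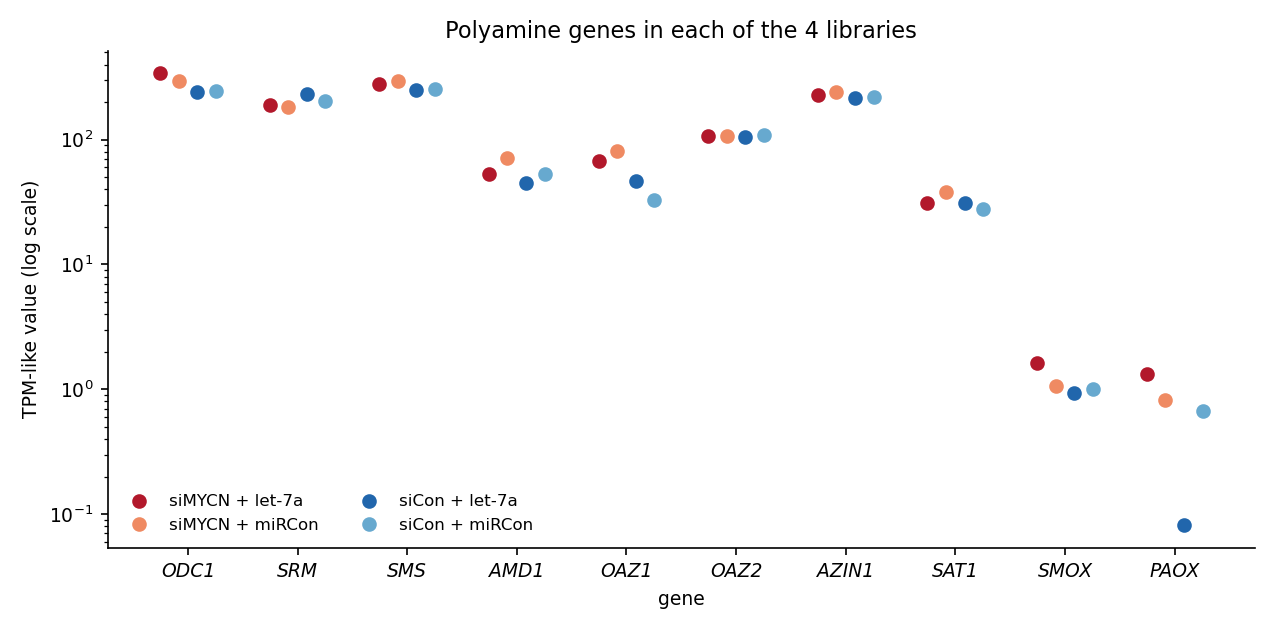
TPM-like values (log axis) of the 10 polyamine genes, with 1 point per library and 4 libraries per gene. ODC1, SMS, AZIN1 and SRM lie between 182 and 340, while SMOX and PAOX lie at 1.61 or less.

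ODC1, SMS and SRM, of the enzymes of synthesis, and the antizyme inhibitor AZIN1 were the 4 most abundant members, and the oxidases were close to 0. AMD1 was below both antizymes by its mean, but above OAZ1 in siCon plus miRCon (52.9 against 32.7). By mean TPM-like value the order was ODC1 (279), SMS (270), AZIN1 (225), SRM (202), OAZ2 (107), OAZ1 (57.0), AMD1 (55.7), SAT1 (32.1), SMOX (1.15) and PAOX (0.728). Neighbours in this order whose values overlapped across the 4 libraries were ODC1 and SMS, AZIN1 and SRM, OAZ1 and AMD1, and SMOX and PAOX. AMD1, the least abundant enzyme of synthesis, was exceeded by ODC1 6.37-fold in siMYCN plus let-7a, 4.14-fold in siMYCN plus miRCon, 5.28-fold in siCon plus let-7a and 4.59-fold in siCon plus miRCon. GENCODE 29 names 4 processed pseudogenes of AMD1 and 2 of SRM, and how reads shared with such copies were divided cannot be seen in gene-level values.

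With siMYCN, of the 8 members with a mean of at least 5, ODC1, SMS, AMD1, OAZ1 and AZIN1 were higher and SRM was lower in both pairs, with differences from 4.35% to 146% for the higher genes and of -19.4% and -10.3% for SRM. None (0) of the 8 passed the test. The largest estimate among them was that of OAZ1, at a log2 fold change of 0.90 ± 0.19 over both pairs, followed by ODC1 at 0.39 ± 0.079 (limma SE, 4 libraries). In bulk RNA, fewer cells of a type and less RNA per cell cannot be told apart. The test was limma on log2(value + 1) over the 9324 genes with a mean of at least 5, with siRNA and mimic as additive terms. Its 1 residual degree of freedom is the departure from additivity, moderated by that of the other genes.

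Among the enzymes of synthesis, ODC1 is found on chromosome 2 (10439968 to 10448504 in GRCh38, minus strand). Its TPM-like value was 340 in siMYCN plus let-7a and 295 in siMYCN plus miRCon, against 239 in siCon plus let-7a and 243 in siCon plus miRCon. Both siMYCN values were above both siCon values, by 42.2% in the let-7a pair and 21.2% in the miRCon pair. Over both pairs ODC1 had an adjusted p of 0.0613 by limma with Benjamini-Hochberg adjustment over all genes. Its estimate was above that of 86.6% of the tested genes. ODC1 is the gene with the intronic E-box pair printed above.

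SRM (chromosome 1, 11054584 to 11060024, minus strand) was the one enzyme of synthesis with lower values. It was at 188 in siMYCN plus let-7a and 182 in siMYCN plus miRCon, against 234 in siCon plus let-7a and 203 in siCon plus miRCon. The groups did not overlap. Its log2 fold change was -0.23 ± 0.073 (limma SE, adjusted p = 0.127 by limma). SRM, with the upstream E-box printed above, had the opposite sign to ODC1. Among the 964 tested genes with the word in a promoter window, 26.0% were lower and 44.4% higher in both siMYCN pairs, beside 27.4% and 43.2% of all tested genes.

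SMS (chromosome X, 21940573 to 21994835, plus strand) was at 281 in siMYCN plus let-7a and 295 in siMYCN plus miRCon, against 251 in siCon plus let-7a and 254 in siCon plus miRCon. Both siMYCN values were the higher ones, with a log2 fold change of 0.19 ± 0.062 (adjusted p = 0.137 by limma). AMD1 (chromosome 6, 110874770 to 110895713, plus strand) was at 53.3 in siMYCN plus let-7a and 71.2 in siMYCN plus miRCon, against 45.3 in siCon plus let-7a and 52.9 in siCon plus miRCon. The groups did not overlap, with 53.3 as the lower siMYCN value and 52.9 as the higher siCon value. The AMD1 log2 fold change was 0.33 ± 0.10 (adjusted p = 0.124 by limma). Summed over ODC1, AMD1, SRM and SMS, the TPM-like value was 863 in siMYCN plus let-7a and 843 in siMYCN plus miRCon, against 769 in siCon plus let-7a and 754 in siCon plus miRCon.

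Among the regulators of ODC1, OAZ1 had higher siMYCN values and OAZ2 did not. OAZ1 (chromosome 19, 2269509 to 2273490, plus strand) was at 67.8 in siMYCN plus let-7a and 80.6 in siMYCN plus miRCon, against 46.7 in siCon plus let-7a and 32.7 in siCon plus miRCon. Both siMYCN values were above both siCon values, and the gap was 146% in the miRCon pair and 45.3% in the let-7a pair. OAZ1 had an adjusted p of 0.0634 by limma, and its estimate exceeded that of 98.6% of the tested genes. OAZ2 (chromosome 15, 64687573 to 64703281, minus strand) was at 106 in siMYCN plus let-7a and 106 in siMYCN plus miRCon, against 105 in siCon plus let-7a and 109 in siCon plus miRCon. The groups overlapped, and the log2 fold change was -0.011 ± 0.077 (adjusted p = 0.944 by limma). The antizyme inhibitor AZIN1, on chromosome 8, was at 227 in siMYCN plus let-7a and 240 in siMYCN plus miRCon, against 217 in siCon plus let-7a and 218 in siCon plus miRCon. Its siMYCN values were the higher ones by a small margin, at 0.099 ± 0.066 (adjusted p = 0.387 by limma). With values rescaled by median ratios the AZIN1 estimate was 0.038.

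Among the genes of breakdown, SAT1 (chromosome X, 23783173 to 23786226, plus strand) was at 31.1 in siMYCN plus let-7a and 38.2 in siMYCN plus miRCon, against 31.3 in siCon plus let-7a and 27.9 in siCon plus miRCon. The groups overlapped, and the higher siMYCN level was seen in the miRCon pair alone (0.21 ± 0.15, adjusted p = 0.404 by limma). SMOX was at 1.61 in siMYCN plus let-7a and 1.06 in siMYCN plus miRCon, against 0.938 in siCon plus let-7a and 0.999 in siCon plus miRCon. PAOX was at 1.33 in siMYCN plus let-7a and 0.826 in siMYCN plus miRCon, against 0.0814 in siCon plus let-7a and 0.669 in siCon plus miRCon. Both oxidases were under the level filter and were not tested, and at such levels the differences cannot be set against any error.

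Counts over the members stand beside those over all tested genes. Of the 8 tested members, 5 were higher in both pairs, where 43.2% of all tested genes were, and 1 was lower, where 27.4% were. The siMYCN and siCon libraries did not overlap for 5 members on the higher side and 1 on the lower side, against 35.6% and 21.1% of all tested genes. By limma at an adjusted p under 0.05, 0 members were called higher and 0 lower, while 2.07% of all tested genes were called higher and 1.36% lower. At an unadjusted p under 0.05, limma had 4 members higher (ODC1, OAZ1, AMD1 and SMS) and 1 lower (SRM), against 17.0% and 9.40% of all tested genes. In both siMYCN pairs a 1.5-fold difference of 1 sign was reached by 0 members, and by 2.85% of tested genes upwards and 1.61% downwards. The members' median log2 fold change over both pairs was 0.20, and that of all tested genes 0.056. With genes of a mean of at least 20, ODC1 (adjusted p = 0.0489) and OAZ1 (adjusted p = 0.0492) passed limma, as did OAZ1 with values rescaled by median ratios (adjusted p = 0.0345). Over the settings tried, the adjusted p ranged from 0.0489 to 0.415 for ODC1 and from 0.0345 to 0.472 for OAZ1.

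**Figure D2:**
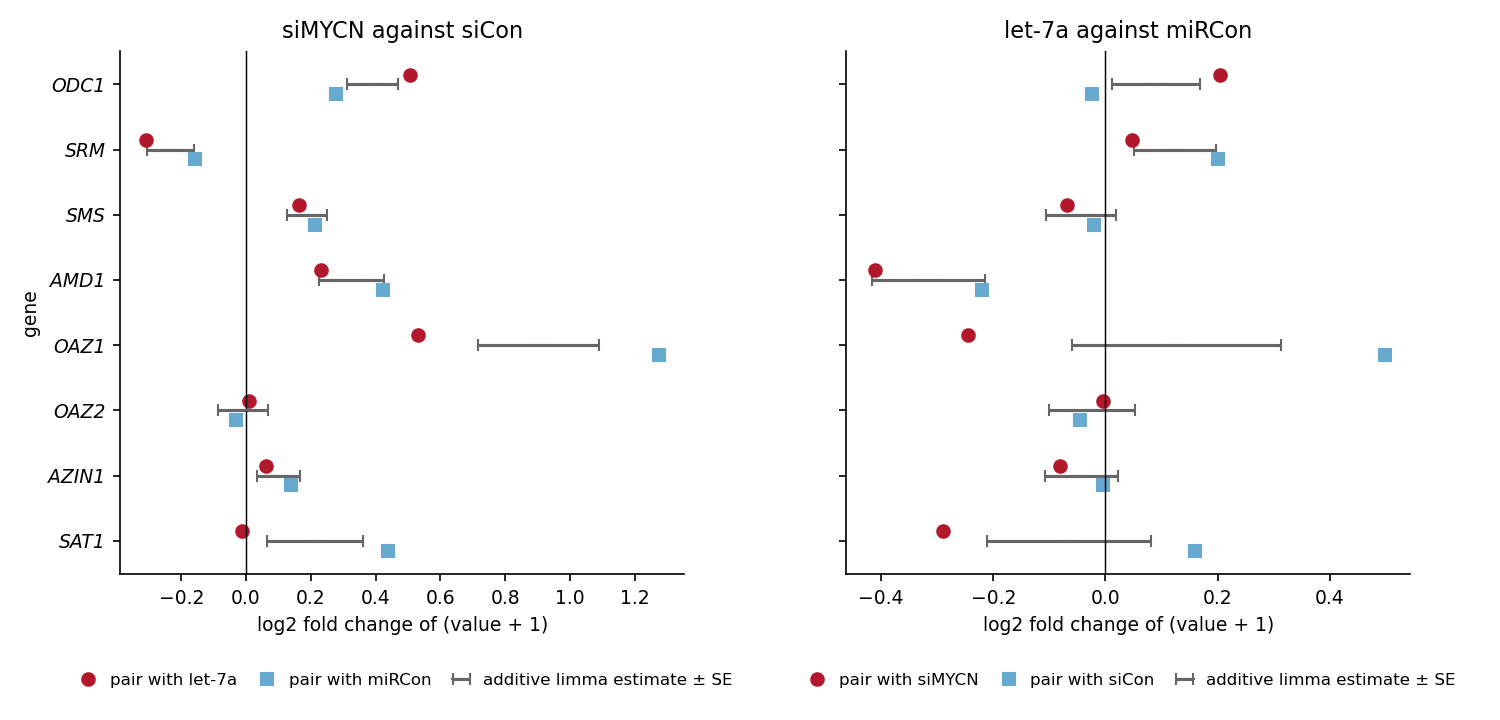
Log2 fold changes of (value + 1) for the 8 members with a mean of at least 5, for siMYCN against siCon (left) and let-7a against miRCon (right). Points are single pairs of libraries and bars the additive limma estimate ± SE. OAZ1 has the largest siMYCN estimate (0.90), and AMD1 the lowest let-7a estimate (-0.32).

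With the let-7a mimic, AMD1 had the lowest estimate relative to the control mimic among the 8 tested members. It was at 53.3 with let-7a, against 71.2 with miRCon, in siMYCN cells, and at 45.3 with let-7a, against 52.9 with miRCon, in siCon cells. The difference was -25.1% in siMYCN cells and -14.4% in siCon cells, although let-7a and miRCon values overlap when the siRNA is ignored. AMD1 had an additive let-7a estimate of -0.32 ± 0.10 (limma SE, 4 libraries), with an unadjusted p of 0.0243 and an adjusted p of 0.663 by limma, so AMD1 did not pass. AMD1 carries only the 6-base match printed above. Of the 921 tested genes with such a match and no longer site, 95.0% had a higher let-7a estimate than AMD1. Over all tested genes with no longer site, with or without the 6-base match, the share was 94.1%. AMD1 was picked as the lowest of the 8 members, and the part of the match was not tested. Lower values in both let-7a pairs were found in 35.8% of the 921 genes, 40.3% of genes with a longer site and 32.0% of genes with no longer site.

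SRM was the member with higher values in both let-7a pairs. It was at 188 with let-7a, against 182 with miRCon, in siMYCN cells, and at 234 with let-7a, against 203 with miRCon, in siCon cells. The step was 3.38% in siMYCN cells and 15.0% in siCon cells, and the estimate was 0.12 ± 0.073 (adjusted p = 0.712 by limma). ODC1 was 15.3% higher with let-7a in siMYCN cells, and its difference in siCon cells was -1.70%. SMS had log2 fold changes of -0.068 with siMYCN and -0.020 with siCon. OAZ2 had -0.0037 with siMYCN and -0.045 with siCon, and AZIN1 had -0.081 with siMYCN and -0.0041 with siCon. The medians over all tested genes were -0.039 with siMYCN and -0.018 with siCon.

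OAZ1 and SAT1 had opposite signs in the 2 let-7a pairs. OAZ1 was at 67.8 with let-7a, against 80.6 with miRCon, in siMYCN cells, and at 46.7 with let-7a, against 32.7 with miRCon, in siCon cells. SAT1 was at 31.1 with let-7a, against 38.2 with miRCon, in siMYCN cells, and at 31.3 with let-7a, against 27.9 with miRCon, in siCon cells. For both genes let-7a went with a lower value under siMYCN and a higher one under siCon. The additive estimates, 0.13 ± 0.19 for OAZ1 and -0.065 ± 0.15 for SAT1, had adjusted p-values of 0.873 and 0.917 by limma. Because the 4 libraries are the same, the siMYCN pairs of these genes differ by equal amounts.

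Over the 8 tested members, 4 were lower and 1 was higher in both let-7a pairs, against 33.5% and 22.6% of all tested genes. The let-7a and miRCon libraries did not overlap for 1 member, OAZ2, on the lower side, where 16.2% of tested genes did not, and for 0 on the higher side, where 8.90% did not. Limma called 0 members and 0 of all tested genes (0.0% in each direction). At an unadjusted p under 0.05 it had 1 member lower (AMD1) and 0 higher, against 4.71% and 2.77% of tested genes. A 1.5-fold difference of 1 sign in both let-7a pairs was reached by 0 members, and by 0.257% of tested genes downwards and 0.204% upwards. The members' median was -0.033 over both pairs, and that of all tested genes -0.031. With values rescaled by median ratios, AMD1 was the only member still lower in both let-7a pairs, and SRM and ODC1 were higher in both.

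In the double treatment, siMYCN plus let-7a against siCon plus miRCon, OAZ1 was 107% higher and ODC1 39.8% higher. SAT1 was 11.2% and SMS 10.6% higher, and AZIN1 was 4.05% higher. AMD1, higher with siMYCN and lower with let-7a, was at 53.3 in siMYCN plus let-7a and 52.9 in siCon plus miRCon, a difference of 0.745%. SRM and OAZ2 had differences of -7.32% and -2.42%. OAZ1 was the only 1 of the 8 tested members at least 1.5-fold higher on the log2(value + 1) scale, a size reached by 7.5% of tested genes, and 0 members were that much lower, against 5.97%. These comparisons rest on 1 library each and have no test.

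The let-7a effect with siMYCN minus that with siCon measures how far a gene departs from additivity, and has no test in this design. It was -0.74 for OAZ1, -0.45 for SAT1, 0.23 for ODC1, -0.19 for AMD1 and -0.15 for SRM on the log2 scale, and between -0.077 and 0.041 for AZIN1, SMS and OAZ2. Among the 4466 tested genes with a mean from 20 to 100, the median size of this difference was 0.17, and OAZ1 exceeded 97.7% and SAT1 88.4% of them. Among the 1206 tested genes with a mean of at least 100 the median size was 0.11, and ODC1 exceeded 80.4% of them. A difference of 2-fold was reached by 0 members, and by 1.16% of tested genes upwards and 1.23% downwards.

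Ratios within a library do not depend on the scaling between libraries. ODC1 was 1.95 times the summed antizymes OAZ1 and OAZ2 in siMYCN plus let-7a and 1.58 times in siMYCN plus miRCon, against 1.57 times in siCon plus let-7a and 1.72 times in siCon plus miRCon. The siMYCN and siCon ratios overlapped, and the miRCon pair had the lower ratio with siMYCN. AZIN1 was 1.3 and 1.28 times the summed antizymes in siMYCN libraries with let-7a and with miRCon, against 1.43 and 1.54 times in siCon libraries with let-7a and with miRCon. Here both siMYCN ratios were the lower ones. OAZ1 made up 39.0% and 43.1% of the antizyme sum in siMYCN libraries with let-7a and with miRCon, against 30.7% and 23.1% in siCon libraries with let-7a and with miRCon. SRM was 0.670 and 0.618 times SMS in siMYCN libraries with let-7a and with miRCon, against 0.931 and 0.799 times in siCon libraries with let-7a and with miRCon, again with no overlap. Synthesis summed to 25.4 times breakdown in siMYCN plus let-7a and 21.0 times in siMYCN plus miRCon, against 23.8 times in siCon plus let-7a and 25.5 times in siCon plus miRCon, and these groups overlapped. SAT1 supplied 91.3% to 96.8% of the breakdown sum. With 2 libraries against 2, the smallest two-sided exact permutation p for such a ratio is 0.333, so none was tested.

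**Figure D3:**
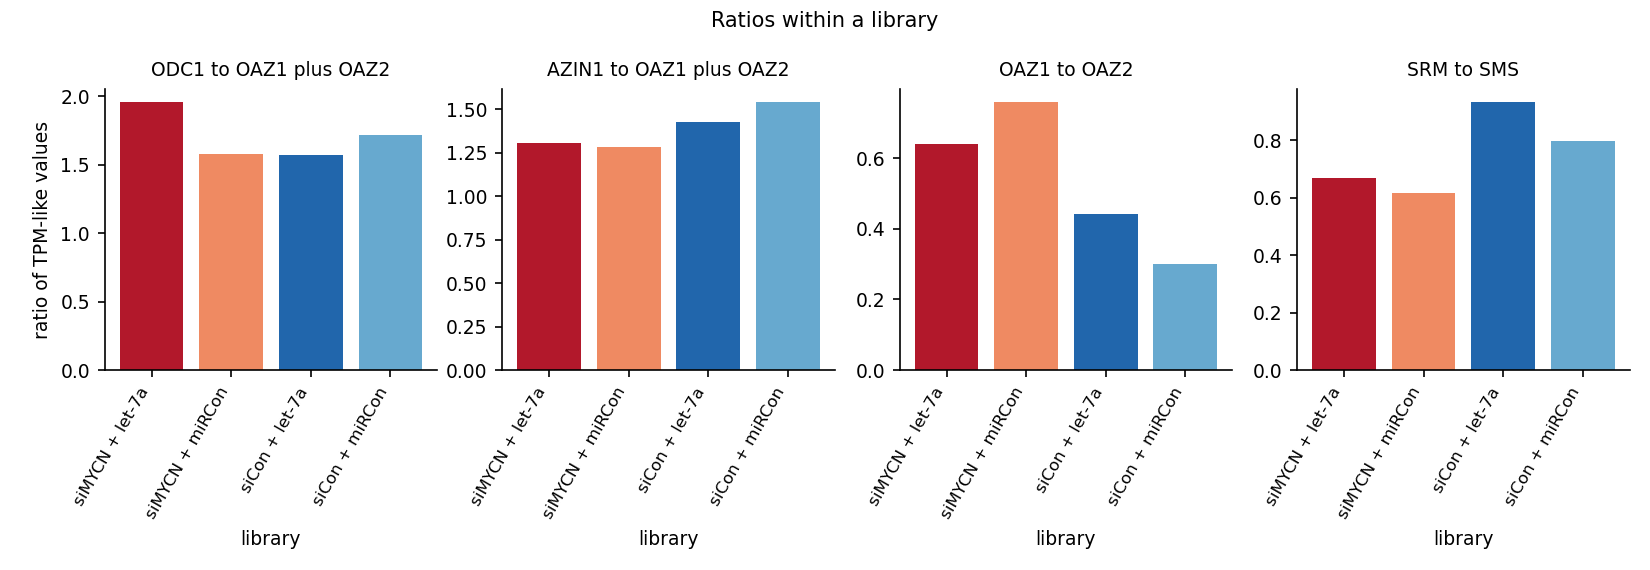
Ratios of TPM-like values within each library for ODC1 and AZIN1 to the summed antizymes, OAZ1 to OAZ2, and SRM to SMS, with 1 bar per library and axes from 0. The SRM to SMS bars are lower in both siMYCN libraries (0.670 and 0.618) than in the siCon libraries (0.931 and 0.799).

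The wider pathway took in transport, precursor supply, the methionine cycle with methylthio salvage, hypusination and close relatives of the members. It was described with 35 listed genes, of which 26 passed the level filter. With siMYCN, limma called 0 of them higher and 2 lower, ENOPH1 and MTR, against 2.07% of all tested genes higher and 1.36% lower. ENOPH1, an enzyme of the salvage that returns the sulfur left by spermidine and spermine synthesis to methionine, fell to 53.6 in siMYCN plus let-7a and 58.5 in siMYCN plus miRCon, against 86.9 in siCon plus let-7a and 107 in siCon plus miRCon. Its log2 fold change was -0.77 ± 0.092 (limma SE, adjusted p = 0.0325 by limma). Methionine synthase, MTR, fell to 35.7 in siMYCN plus let-7a and 39.4 in siMYCN plus miRCon, against 53.8 in siCon plus let-7a and 61.0 in siCon plus miRCon (-0.60 ± 0.098, adjusted p = 0.0469 by limma). Both lost the call with no level filter (adjusted p = 0.367 each) and with limma without a trend (0.132 each), and MTR also with a pseudocount of 5 (0.0510). Over the settings tried, the adjusted p of ENOPH1 ranged from 0.00889 to 0.367 and that of MTR from 0.0196 to 0.367. Among the other salvage and methionine cycle genes, MTAP, which cleaves methylthioadenosine, had -0.31 ± 0.13, ADI1 had 0.060 ± 0.12 and MTRR had 0.78 ± 0.24 with siMYCN. MTRR, with a mean of 6.30, was near the level filter and did not pass (adjusted p = 0.124 by limma). All 11 genes of this list were tested, and their median was -0.035, against 0.056 for all tested genes.

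Hypusination converts a lysine of the translation factor EIF5A with spermidine, through deoxyhypusine synthase (DHPS) and deoxyhypusine hydroxylase (DOHH). DHPS was at 19.5 in siMYCN plus let-7a and 19.6 in siMYCN plus miRCon, against 8.84 in siCon plus let-7a and 12.2 in siCon plus miRCon. It was at least 1.5-fold higher in both pairs but did not pass limma (0.85 ± 0.17, adjusted p = 0.0621), except with values rescaled by median ratios (adjusted p = 0.0428). Of the 26 tested genes of the wider pathway, 1 was that much higher and 1 that much lower in both pairs. The shares of all tested genes were 2.85% and 1.61%. DOHH had 0.24 ± 0.097 and EIF5A 0.26 ± 0.086 with siMYCN. The paralog EIF5A2 was at 30.1 in siMYCN plus let-7a and 32.3 in siMYCN plus miRCon, against 22.2 in siCon plus let-7a and 42.6 in siCon plus miRCon. Its let-7a estimate was -0.50 ± 0.21 (unadjusted p = 0.0578, adjusted p = 0.663 by limma), and its longest annotated 3′ UTR held none (0) of the seed sites searched. The median siMYCN estimate of these 4 genes was 0.25, against 0.056 for all tested genes.

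Of the transport genes, SLC3A2, the heavy chain of amino acid exchangers, was at 50.6 in siMYCN plus let-7a and 57.3 in siMYCN plus miRCon, against 38.0 in siCon plus let-7a and 32.3 in siCon plus miRCon (0.60 ± 0.13, adjusted p = 0.0683 by limma). The arginine carriers SLC7A1 and SLC7A2 had estimates of 0.25 ± 0.082 and -0.40 ± 0.15 with siMYCN, of opposite sign. The polyamine transporter ATP13A3 was at 196 with let-7a, against 221 with miRCon, in siMYCN cells, and at 178 with let-7a, against 207 with miRCon, in siCon cells. It was lower with let-7a in both pairs (-0.20 ± 0.066, unadjusted p = 0.0282, adjusted p = 0.663 by limma) and holds a 7mer-A1 site. Its lysosomal relative ATP13A2 had 0.21 ± 0.16 with siMYCN and -0.027 ± 0.16 with let-7a. MTAP, with an 8mer site in the 3′ UTR of transcript MTAP-201, which is not its longest, had the opposite sign, at 21.9 with let-7a, against 17.3 with miRCon, in siMYCN cells, and at 27.3 with let-7a, against 22.0 with miRCon, in siCon cells (0.31 ± 0.13, adjusted p = 0.663 by limma). MTR also holds a 7mer-A1 site, and had let-7a log2 fold changes of -0.14 with siMYCN and -0.18 with siCon. The ATP13A3 and MTAP sites are shown with the matching bases in capitals, as examples with and without lower values. They lie at chr3:194404960-194404989 on the minus strand and chr9:21864841-21864870 on the plus strand.
ATP13A3: tttttttaagttagaatttTACCTCAtaaa
MTAP: gagcctcttctctggctgCTACCTCAgggc

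Among the genes that supply ornithine and arginine, ASS1, which makes argininosuccinate, was at 299 in siMYCN plus let-7a and 378 in siMYCN plus miRCon, against 432 in siCon plus let-7a and 467 in siCon plus miRCon. Its siMYCN estimate of -0.42 ± 0.074 had an adjusted p of 0.0520 by limma. It passed with a mean of at least 20 (0.0409), with median ratios (0.0175) and without mitochondrial transcripts (0.0350). With let-7a it had -0.22 ± 0.074 (unadjusted p = 0.0275, adjusted p = 0.663 by limma). Ornithine aminotransferase, OAT, had 0.26 ± 0.079, ALDH18A1 had 0.090 ± 0.074 and ASL, which releases arginine, had -0.030 ± 0.13 with siMYCN. Of the close relatives of the members, OAZ3 was between 14.7 and 16.8 in all 4 libraries, AZIN2 and SATL1 were listed at 0 in all, and SAT2 was at 4.11 or less, these 3 being named after their values were seen. Limma called 0 of the 26 genes for let-7a, with 2 lower (ATP13A3 and ASS1) and 0 higher at an unadjusted p under 0.05, against 4.71% and 2.77% of all tested genes. The median over all 26 was 0.076 with siMYCN and -0.022 with let-7a, against 0.056 and -0.031 over all tested genes.

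**Figure D4:**
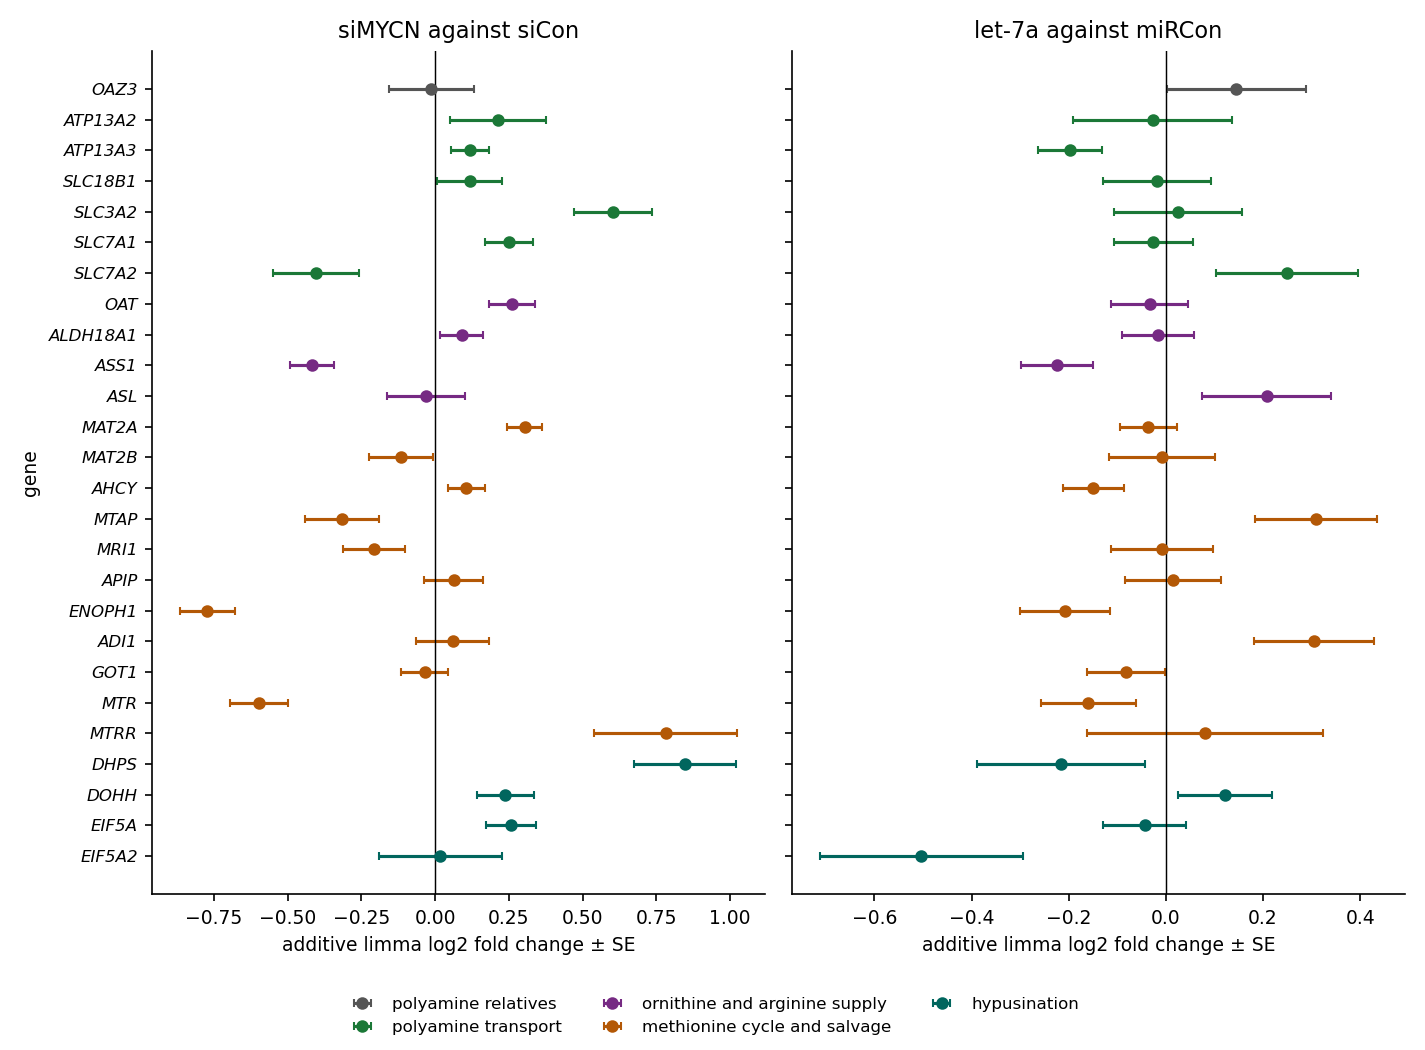
Additive limma log2 fold changes ± SE of the 26 tested genes of the wider pathway, for siMYCN against siCon (left) and let-7a against miRCon (right), coloured by list. ENOPH1 (-0.77) and MTR (-0.60) are the genes called with siMYCN, and none is called with let-7a.

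The genes whose pattern over the 4 libraries was most like that of ODC1, by Euclidean distance between centred log2(value + 1) profiles over the 9324 tested genes, were JUNB (distance 0.0156), EPM2AIP1 (0.0251) and RAPH1 (0.0274). JUNB was at 121 in siMYCN plus let-7a and 104 in siMYCN plus miRCon, against 84.1 in siCon plus let-7a and 84.9 in siCon plus miRCon. The distance is a description only.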

How the data were processed

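PolyA RNA of 4 libraries was measured, 1 per group, grouped by the sample labels. The deposited table holds natural log values made by the authors. The base was inferred from the values, since the sums of exp(x) - 1 vary less between libraries than those for base 2, and depth is unknown. Per the submitters' processing notes, HISAT 0.1.6, Salmon 0.3.2 and GRCh38 were used, in roles they do not state. No source used here gives the annotation or the log step. Of 19837 rows, 92 spike-in and 11 reporter or selection rows were set apart.

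Limma 3.58.1 (R 4.3.3) with a trend was fitted to log2(value + 1) with additive terms for the siRNA and the mimic, on genes with a mean of at least 5, and p-values were adjusted by Benjamini-Hochberg over all of them. Fold changes on this scale understate low genes. P-values test each additive effect, with the spread taken from how far the 4 libraries depart from additivity. The fit was also run on simulated data built to be additive, which cannot show whether the real libraries are additive. The members and lists were chosen with earlier results of these data known. Named genes were the members, MYCN, wider-pathway genes called by limma or the 1.5-fold rule or among the 3 largest estimates of their list in either comparison, and the 3 nearest to ODC1. The identity of the members' proteins was not analysed here. Other sites of MTAP are not reported here. Sites used GENCODE 29 and RefSeq (GRCh38.p14) sequences. Alternatives were other pseudocounts, filters, scalings and folds, limma without a trend, and single pairs.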

Additional observations from a re-analysis of the deposited data

Results flagged for a closer look

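With 1 library per group, a difference between pairs could only be picked out where a gene moved more than 0.1 on the log2 scale in opposite directions in the 2 pairs, and none of these differences was tested. The let-7a effect with siMYCN minus that with siCon was -0.74 for OAZ1, -0.45 for SAT1, -0.39 for ATP13A2, -0.40 for SLC3A2 and 0.59 for MTRR. The siMYCN effect with let-7a minus that with miRCon was 0.81 for EIF5A2, whose value in siCon plus let-7a (22.2) was the lowest of its 4 libraries. The siCon plus miRCon library held the lowest value of OAZ1, SAT1, ATP13A2 and SLC3A2.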

How the results depend on the processing

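No pairing by replicate was possible because the labels give no replicate numbers and each group is 1 library. Leaving out a library leaves the additive fit no residual degree of freedom, so single pairs stand in for it as values. In the limma test of siMYCN, where 0 members, 193 genes higher and 127 lower were called, a mean of at least 20 gave 2 members higher, 310 genes higher and 196 lower, and median ratios gave 1 member higher, 340 genes higher and 408 lower. Leaving out mitochondrial transcripts gave 251 genes lower. With no filter, and with limma without a trend, 0 genes were called in either direction. The cause was not tested. At 1.3-fold, 1 member was higher in both siMYCN pairs, and at 1.5-fold 1 member differed between pairs. Median ratios and leaving out mitochondrial transcripts each gave 2 members lower in both siMYCN pairs in place of 1 (OAZ2 joined SRM). For let-7a, median ratios gave 1 member lower and 2 higher in both pairs. Estimates near 0 changed sign for siMYCN in EIF5A2 (-0.042 with median ratios, -0.038 without mitochondrial transcripts), and with median ratios for let-7a in OAZ2 (0.0095), ATP13A2 (0.0052), SLC7A1 (0.0084), OAT (0.0011), ALDH18A1 (0.018) and MYCN (0.0020). MYCN did not pass the siMYCN test in the main setting (adjusted p = 0.0584 by limma). It passed with a mean of at least 20 (0.0441), median ratios (0.0204) and without mitochondrial transcripts (0.0403). It did not pass with the other pseudocounts, with no filter or with limma without a trend. Single members differed in the size of their pairs, as the pair values in the text show. Depth is unknown, so no limit from counting could be set.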
